A study of Homo sapiens with 24 samples.

Results

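The comparison set the response of the T24 bladder cancer cell line to mitomycin C against the response of the TCC-SUP line, and asked which genes responded differently. It used 12 of the 24 libraries of the series, which were those of these 2 lines, chosen by cell line and treatment and not by any measured value. Both lines were established from human bladder carcinoma. Each line had 3 untreated libraries (NT) and 3 treated libraries (MMC), numbered 1, 3 and 4, and the design text calls them biological replicates. Treated cells had been kept with 75 µM mitomycin C for 1 h, and RNA of all groups was poly(A)-selected and sequenced. In the treated groups it was collected 15 h after exposure. The treatment tag of these samples is spelled MCC, which was read as mitomycin C because the protocol names no other drug. The other libraries of the series, from 5637 and CLS-439 cells, enter only where named. Each line stands for 1 tumour, so a difference between the lines belongs to these 2 cultures and not to a class of tumours.

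Mitomycin C is activated inside cells and links the strands of DNA, which blocks replication and transcription, and it is given into the bladder against superficial tumours. Among the programmes that damaged or stressed cells switch on, NF-kB factors (RELA, RELB, NFKB1, NFKB2) drive cytokines and also their own inhibitors (NFKBIA, TNFAIP3). In the integrated stress response, kinases phosphorylate a translation initiation factor, the transcription factor ATF4 is translated more, and ATF4 raises genes for amino acid supply and tRNA charging together with stress regulators such as DDIT3, ATF3 and CHAC1.

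The T24 libraries held from 19550429 to 28821665 counted reads and the TCC-SUP libraries from 20748210 to 23728382. Mitochondrial genes took 3.21 to 4.2% of the reads in T24 and 4.33 to 7.4% in TCC-SUP. Of the urothelial and epithelial markers, KRT7, KRT8, KRT18 and KRT19 were high in T24 (means of 422 to 2880 CPM untreated). CPM is the read count scaled to the library's total after adjustment by edgeR's TMM factors. CDH1, TP63, KRT5, KRT13, KRT20 and the uroplakin genes averaged under 1 CPM in T24. Of these, KRT5, KRT13, KRT20 and the uroplakin genes averaged under 1 CPM in TCC-SUP as well. GATA3, FOXA1 and PPARG were present in both lines. They averaged 29.3, 43.8 and 43.7 CPM in untreated T24 and 54.8, 18.7 and 92.5 CPM in untreated TCC-SUP. Untreated TCC-SUP had KRT18 at 1860 CPM, KRT7, KRT8 and KRT19 at 31.0, 145 and 143 CPM, and CDH1 at 41.2 CPM. All 10 fibroblast markers were present in TCC-SUP, with a summed level of 4710 to 11800 CPM against 3.98 to 11.8 CPM in T24. COL1A1 alone averaged 4080 CPM in untreated TCC-SUP. Leukocyte markers summed to 1.01 to 1.92 CPM in T24 and 17.3 to 40.1 CPM in TCC-SUP, mostly PTPRC (28.5 CPM untreated), while CD3E, MS4A1 and NKG7 were at or near 0. Endothelial markers summed to 2.01 to 9.5 CPM in T24 and 15.4 to 58.7 CPM in TCC-SUP, mostly TEK (50.2 CPM untreated), while CLDN5, KDR and EMCN were at or near 0. In TCC-SUP the fibroblast and the leukocyte sums were lower in every treated than in every untreated library. The urothelial and epithelial markers summed to 2430, 2050 and 2710 CPM in untreated TCC-SUP and to 2140, 1150 and 1210 CPM after treatment. In T24 they summed to 7020, 6940 and 5420 CPM and then to 6830, 3160 and 3150 CPM. The endothelial sums of treated replicates 3 and 4 were also lower in both lines. The part of these shifts in the results was not tested. In bulk RNA, fewer cells that make a transcript and less of it per cell cannot be told apart. Treated replicate 1 of TCC-SUP moved least: the SD of the log2 response over 9876 genes of at least 10 CPM was 0.41 there, against 0.73 and 0.62 in replicates 3 and 4, and it was 0.70, 0.82 and 0.73 in T24. Counts over all genes are therefore also given without treated replicate 1 of both lines, and so are counts of lists where leaving it out moved them by over 1.5 times.

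The response differed between the lines in 307 of 17041 genes tested (1.8%), by edgeR's quasi-likelihood test of the line-by-treatment term at a Benjamini-Hochberg adjusted p under 0.05. The difference is the log2 change in T24 minus the log2 change in TCC-SUP. It was above 0 in 235 genes (1.38%) and below 0 in 72 (0.423%), and it reached a size of 1 or more in 273. Most of these genes were called in T24 and not in TCC-SUP, which does not show that TCC-SUP did not move. Of the 235, 168 were called higher in T24 and not called in TCC-SUP, 25 were higher in both lines, 24 were higher in T24 and lower in TCC-SUP, and 18 were called lower in TCC-SUP and not called in T24. Of the 72, 57 were called lower in T24 and not called in TCC-SUP, 7 higher in TCC-SUP and not called in T24, 5 lower in T24 and higher in TCC-SUP, and 3 lower in both.

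The background of each line's own response was larger. In T24, 2428 genes rose (14.2%) and 2449 fell (14.4%), and in TCC-SUP 1369 rose (8.03%) and 1833 fell (10.8%). Of 1714 genes called in both lines, 1684 moved in the same direction, 803 higher and 881 lower. Opposite directions with a called difference were found in 24 genes that rose in T24 and fell in TCC-SUP (0.141%) and in 5 that fell in T24 and rose in TCC-SUP (0.0293%). Some of the 24 averaged under 1 CPM in both groups of 1 line, so their change there rests on few reads. A further 3163 genes were called in T24 and not in TCC-SUP, but the difference itself was called in 225 of them, so a call in 1 line is not by itself a difference between lines. Over all genes tested the median difference was 0.0044. The shares over all genes are the background for the counts of each list below, and few or no calls in a short list say little.

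The number of calls rested heavily on which libraries were used. Without treated replicate 1 of both lines, 673 differences above 0 and 691 below 0 were called, among them all 235 of the first kind and 71 of the 72 of the second. A replicate block on the treated libraries took their numbers as pairs across the lines. It gave 698 and 529, with 61 and 35 genes in opposite directions. Without replicate 4 of all groups, only 3 differences above 0 were called by edgeR (IL6, TRAF1 and GADD45A) and 0 below, although 588 and 253 had an unadjusted p under 0.05. Without replicate 3 the counts were 68 and 6.

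**Figure D1:**
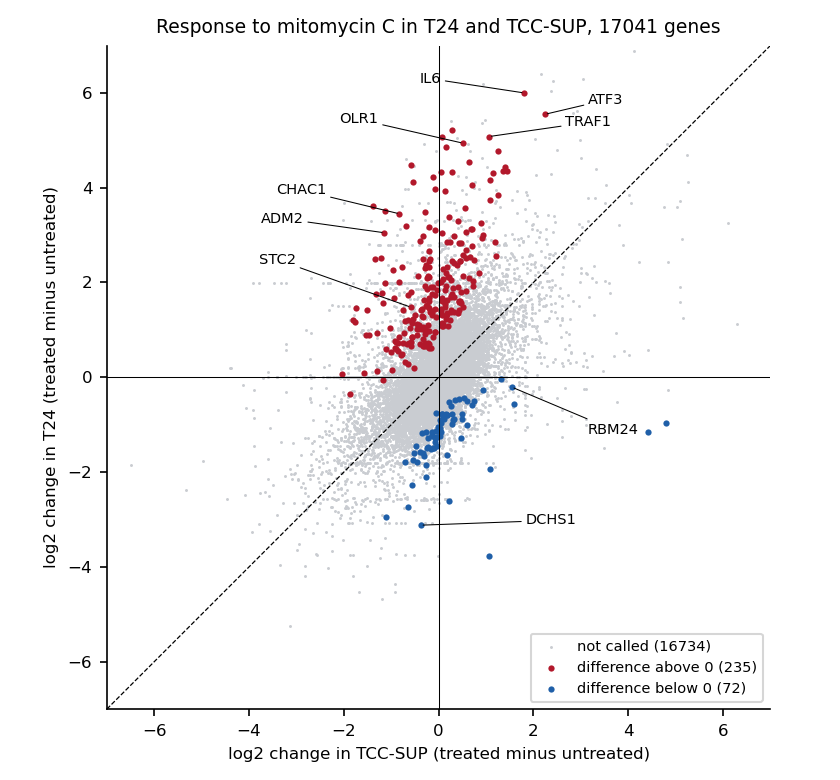
Log2 change after mitomycin C in TCC-SUP (horizontal axis) and in T24 (vertical axis), 1 point for each of the 17041 genes tested, with the dashed line where both changes are equal and 1 gene outside the plotted range. The 235 genes with a called difference above 0 (red) lie above the line, mostly near 0 in TCC-SUP and high in T24, and the 72 below 0 (blue) lie under it.

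Genes of the NF-kB system rose in T24, and many also rose in TCC-SUP, by less in the members whose difference was called. The regulators and feedback inhibitors of this list were 16 genes tested. All 16 rose in T24 and 9 rose in TCC-SUP, against 14.2% and 8.03% of all genes tested. The difference between the lines was above 0 and called in 7 (against 1.38% of all genes) and below 0 in none. The median log2 change was 1.67 in T24 and 0.76 in TCC-SUP, and the median difference was 1.10 (1.34, 1.23 and 1.11 in treated replicates 1, 3 and 4). With the replicate block on the treated libraries or without treated replicate 1, 11 of the 16 differences were called.

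The bases before the start of IL6 and of 3 NF-kB genes with a called difference are shown because they hold the motif searched for NF-kB, which is GGGA, any 2 bases and then TTCC, on either strand (capitals). They are from RefSeq's GRCh38.p14 annotation, read 5′ to 3′ on the gene's strand, and positions count back from -1, the base before the start. Only 30 bases are given where the motif lies in an exon of GENCODE 29, which belongs to a longer transcript of TNFAIP3 itself and, at NFKB1, to a transcript on the opposite strand.
IL6 (chr7:22727092-22727146, + strand, motif at -73 to -64): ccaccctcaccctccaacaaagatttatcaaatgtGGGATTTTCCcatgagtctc
NFKBIA (chr14:35404786-35404865, - strand, motif at -81 to -72): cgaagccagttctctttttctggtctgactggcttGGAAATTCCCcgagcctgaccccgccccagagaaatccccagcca
TNFAIP3 (chr6:137867182-137867211, + strand, motif at -67 to -58): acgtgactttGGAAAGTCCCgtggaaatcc
NFKB1 (chr4:102501300-102501329, + strand, motif at -49 to -40): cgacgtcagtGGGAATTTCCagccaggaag
Within 250 bases before the start, this motif was present in 5 of the 11 genes of the NF-kB and cytokine lists that had a called difference and a promoter in the table (45.5%), in 9 of 179 genes with a difference above 0 (5.03%), in 1 of 55 below 0 (1.82%) and in 166 of all 11800 genes tested with a promoter (1.41%). A match is a string of letters and was not tested as a binding site.

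IL6, the cytokine that drives acute inflammation (chromosome 7, 22725884 to 22732002), separated the lines most clearly by p. It was at 4.29, 4.3 and 3.98 CPM in untreated T24 and at 241, 301 and 261 CPM after treatment. In TCC-SUP it was at 9.27, 9.53 and 12.3 CPM and then at 30.7, 34 and 44 CPM. All treated libraries lay above all untreated ones in both lines, and every treated T24 library lay above every treated TCC-SUP library although untreated T24 had started lower. The log2 change was 6.00 ± 0.21 (SE, n = 3 libraries per group throughout) in T24 and 1.80 ± 0.17 in TCC-SUP, a difference of 4.19 ± 0.25 (adjusted p = 1.86e-06).

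TRAF1, an adaptor of TNF receptors that NF-kB induces (chromosome 9, 120902393 to 120929173), was at 6.57, 6.07 and 5.1 CPM in untreated T24 and at 173, 181 and 245 CPM after treatment. In TCC-SUP it went from 6.96, 7.75 and 9.37 CPM to 13.7, 17.3 and 19.5 CPM. Every untreated T24 library lay somewhat below every untreated TCC-SUP library, and the treated groups were far apart in the other order. The difference was 4.01 ± 0.28 (adjusted p = 7.37e-06). TNFAIP3, which encodes the ubiquitin-editing inhibitor A20, rose from 42.2, 58.9 and 90.5 to 1030, 1320 and 1540 CPM in T24 and from 12.7, 23.1 and 17.2 to 32.6, 47.3 and 64.6 CPM in TCC-SUP. Here the untreated T24 level was already above that of TCC-SUP, and the gap widened by a log2 difference of 2.90 ± 0.43 (adjusted p = 0.0034). RELB, a subunit of the non-canonical pathway, rose from 2.82 to 58.0 CPM in T24 and from 7.17 to 18.4 CPM in TCC-SUP (group means), a difference of 3.00 ± 0.30 (adjusted p = 0.000211).

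The other called members differed less. NFKB2, which encodes p100 and p52, had a difference of 1.67, BCL3, a co-regulator, 1.81, NFKBIA, the inhibitor IκBα, 1.24, and NFKB1, which encodes p105 and p50, 1.12. BCL3 rose in T24 (1.32) and had a log2 change of -0.49 in TCC-SUP that did not pass the test (adjusted p = 0.246). RELA, the main transactivating subunit, rose in both lines by 0.83 and 0.47, with a difference of 0.36 ± 0.18 that did not pass the test (adjusted p = 0.35). BIRC3, NFKBIZ and TNIP1 had differences of 1.64, 1.08 and 0.95 with adjusted p of 0.056, 0.073 and 0.079.

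**Figure D2:**
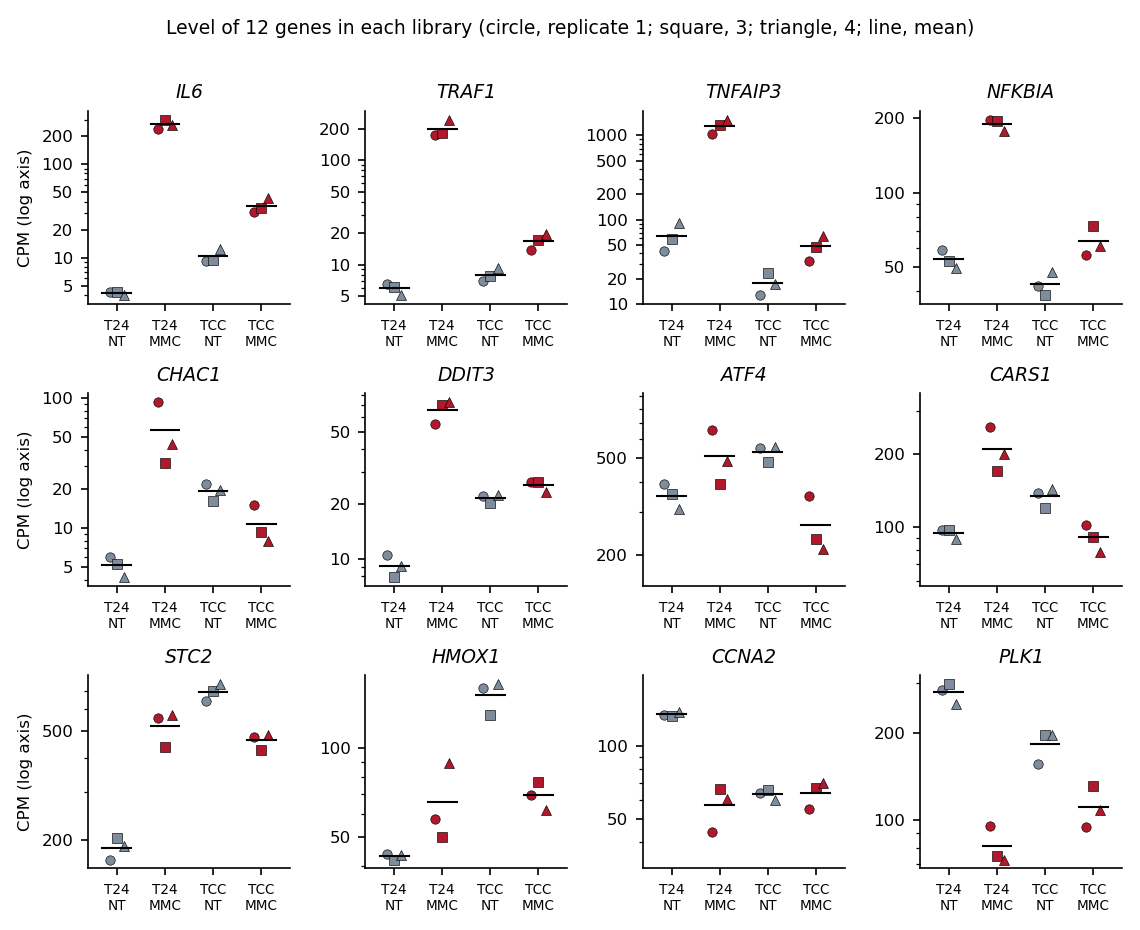
Level of 12 genes in CPM on log axes in each of the 12 libraries, grey for untreated and red for treated, with the replicate number given by the symbol and the group mean by a line. IL6 and TRAF1 end far higher in T24 than in TCC-SUP, CARS1, STC2 and HMOX1 rise in T24 and fall in TCC-SUP, and CCNA2 falls in T24 to about the level of TCC-SUP.

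Cytokines followed in part. Of 24 inflammatory cytokines tested, 17 rose in T24 (against 14.2% of all genes) and 2 fell, and 5 rose in TCC-SUP (against 8.03%). The difference was called above 0 in 6 (against 1.38% of all genes) and below 0 in none, with a median difference of 1.18. The 6 were IL6, TSLP (which stayed under 1 CPM in both lines), IL32, IL1A, CSF1 and IL1B. IL1A, an alarmin, rose from 16.7, 8.65 and 8.97 CPM to 125, 57 and 66.4 CPM in T24, and stood at 3.44, 3.27 and 2.43 CPM before and 2.14, 3.71 and 4.47 CPM after treatment in TCC-SUP. Treated and untreated TCC-SUP libraries overlapped, and those of T24 did not, with a difference of 2.67 ± 0.50 (adjusted p = 0.0158). CSF1, the growth factor of macrophages, rose from 20.3 to 63.2 CPM in T24 and had means of 160 and 130 CPM in TCC-SUP, a difference of 1.94 ± 0.21 (adjusted p = 0.000467). IL1B and IL32 had differences of 1.63 and 3.01.

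Several cytokines that are often named with these rose in both lines with no called difference. CXCL8, the chemokine of neutrophils, rose by 2.56 in T24 and 2.67 in TCC-SUP, with a difference of -0.12 ± 0.64 (95% interval -1.50 to 1.26, adjusted p = 0.98), although its level was 1090 CPM in treated T24 and 2.3 CPM in treated TCC-SUP. TNF rose by 3.41 and 2.08, with a difference of 1.33 ± 0.43 (95% interval 0.40 to 2.25, adjusted p = 0.14), and its log2 responses of 3.28, 3.47 and 3.40 in T24 lay above those of 1.46, 2.30 and 2.23 in TCC-SUP. IL11 rose by 1.73 and 2.26, with a difference of -0.53 ± 0.37 (95% interval -1.32 to 0.26, adjusted p = 0.53). With the block on the treated libraries 10 cytokines of the list had a called difference above 0 and 1 below, and without treated replicate 1 of both lines 7 and 3 did.

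Of the other largest differences above 0, several belong to genes that untreated T24 hardly expressed. OLR1, a receptor for oxidized lipoproteins, was at 0.116, 0.181 and 0.15 CPM in untreated T24 and at 3.69, 6.82 and 3.44 CPM after treatment. In TCC-SUP it was at 138, 43.3 and 121 CPM and at 153, 136 and 141 CPM. The rise in T24 ended well under the untreated level of TCC-SUP, and the TCC-SUP groups overlapped, so the difference of 4.43 ± 0.69 (adjusted p = 0.00452) is one of change and not of final level. The same order of levels held for VASN, a transmembrane protein that binds TGF-β, where T24 went from 1.34 to 25.1 CPM and TCC-SUP from 47.1 to 43.7 CPM. NEDD9, a scaffold of focal adhesions, went from 0.94 to 14.7 CPM in T24, and TNFRSF9, the co-stimulatory receptor 4-1BB, rose by 4.55 in T24 and had a change of 0.63 in TCC-SUP (adjusted p = 0.219). TCIM, a regulator of transcription and immunity, had a difference of 3.77. PTGS2, the inducible cyclooxygenase that makes prostaglandins, rose from 1.7, 2.49 and 2.89 to 36.1, 78.7 and 78.7 CPM in T24 and from 8.63, 10.2 and 5.81 to 11.9, 20.4 and 26.3 CPM in TCC-SUP. Its treated libraries lay above its untreated ones in both lines, and the difference was 3.52 ± 0.50 (adjusted p = 0.00274).

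The integrated stress response was the list whose members most often differed. Of 29 tested, the difference was above 0 and called in 18 (62.1%, against 1.38% of all genes tested) and below 0 in none, and 28 of 29 values were above 0. The lines moved apart. In T24 19 members rose and none fell, against 14.2% and 14.4% of all genes. In TCC-SUP 3 rose and 7 fell, against 8.03% and 10.8%. The median change was 1.16 in T24 and -0.41 in TCC-SUP. The median difference was 1.88, 1.48 and 1.59 in treated replicates 1, 3 and 4. Without treated replicate 1 of both lines 25 of the 29 differences were called.

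Promoter windows of 4 genes of these programmes are shown because they hold the C/EBP-ATF response element searched as TGATGNAA on either strand (capitals), the kind of site at which ATF4 is known to act. Source, strand and counting are as above, and 30 bases are given for CHAC1, whose motif lies in an exon of its own longer GENCODE 29 transcript, and for AARS1, whose motif lies in an exon of the neighbour DDX19B on the opposite strand.
CHAC1 (chr15:40953251-40953280, + strand, motif at -209 to -202): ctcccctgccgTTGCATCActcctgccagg
ATF3 (chr1:212565180-212565259, + strand, motif at -191 to -184): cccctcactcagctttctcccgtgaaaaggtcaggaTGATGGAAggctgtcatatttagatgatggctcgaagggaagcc
AARS1 (chr16:70289675-70289704, - strand, motif at -187 to -180): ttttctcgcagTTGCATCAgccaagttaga
HERPUD1 (chr16:56931930-56932009, + strand, motif at -176 to -169): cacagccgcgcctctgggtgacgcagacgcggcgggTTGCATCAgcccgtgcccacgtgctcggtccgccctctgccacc
The motif was present in 3 of the 22 stress response and synthetase genes with a called difference and a promoter in the table (13.6%), in 8 of 179 genes with a difference above 0 (4.47%), in 0 of 55 below 0 and in 177 of 11800 genes tested (1.5%).

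ATF4 itself, the central transcription factor of this response (chromosome 22, 39519695 to 39522685), was at 391, 355 and 308 CPM in untreated T24 and at 655, 392 and 486 CPM after treatment. In TCC-SUP it fell from 550, 482 and 555 CPM to 351, 233 and 211 CPM. The groups did not overlap in either line, but in T24 treated replicate 3 was only just above the highest untreated library. The change of 0.54 ± 0.21 in T24 did not pass the test (adjusted p = 0.0629), the fall of 1.00 in TCC-SUP did (adjusted p = 0.00653), and the difference was 1.54 ± 0.29 (adjusted p = 0.0165).

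CHAC1, which degrades glutathione, showed the largest difference of the list. It rose from 6.07, 5.3 and 4.2 CPM to 93.4, 31.9 and 44.5 CPM in T24, and in TCC-SUP it was at 21.9, 16.3 and 19.7 CPM before and 15.2, 9.41 and 7.97 CPM after treatment. Treated T24 lay above all other libraries, most of all replicate 1. The difference was 4.28 ± 0.50 (adjusted p = 0.000703), and the change in TCC-SUP, -0.83 ± 0.34, did not pass the test by itself (adjusted p = 0.104). DDIT3, the pro-apoptotic factor CHOP, rose from 10.5, 7.88 and 9.08 CPM to 54.9, 70.3 and 72.9 CPM in T24 and was at 22.2, 20.2 and 22.4 CPM and then 26.3, 26.5 and 23.2 CPM in TCC-SUP. The treated TCC-SUP libraries were above the untreated ones by a small margin, with a change of 0.23 that did not pass the test (adjusted p = 0.353), and the difference was 2.62 ± 0.24 (adjusted p = 8.16e-05).

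Some members rose in both lines. ATF3, a repressor and activator that many stresses induce, rose from 3.01, 3.12 and 2.06 CPM to 133, 157 and 94.2 CPM in T24 and from 9.79, 6.17 and 11.7 CPM to 29, 63.2 and 39.5 CPM in TCC-SUP. No treated library overlapped an untreated one in either line, and the difference was 3.30 ± 0.44 (adjusted p = 0.00159). PPP1R15A, the phosphatase subunit that ends the response, rose by 2.93 in T24 and 0.92 in TCC-SUP, a difference of 2.01 ± 0.20 (adjusted p = 0.000211). ASNS, asparagine synthetase, rose by 3.93 and 1.65, and its difference of 2.29 ± 0.70 did not pass the test (adjusted p = 0.12).

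Genes for amino acid supply were among the called ones. PHGDH and PSAT1 of serine synthesis had differences of 1.45 and 1.28, SLC3A2 and SLC7A11 of cystine import 1.34 and 1.43, CTH of cysteine synthesis 2.32, and SHMT2 and MTHFD2 of mitochondrial folate metabolism 1.03 and 0.98. PHGDH rose from 99.4 to 247 CPM in T24 and had means of 292 and 265 CPM in TCC-SUP. SESN2, an inhibitor of mTORC1 signalling, and CEBPB, a partner of ATF4, rose in T24 by 2.10 and 2.13, with changes of -0.25 and -0.23 in TCC-SUP that did not pass the test. STC2, a secreted glycoprotein, rose from 170, 203 and 190 CPM to 557, 439 and 572 CPM in T24 and fell from 642, 703 and 742 CPM to 475, 428 and 485 CPM in TCC-SUP. The lines thus met at similar treated levels from untreated levels far apart, and the difference was 2.06 ± 0.19 (adjusted p = 8.16e-05). DDIT4, TRIB3 and PSPH had differences of 2.58, 1.91 and 1.67 that did not pass the test, with adjusted p of 0.066, 0.061 and 0.056.

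**Figure D3:**
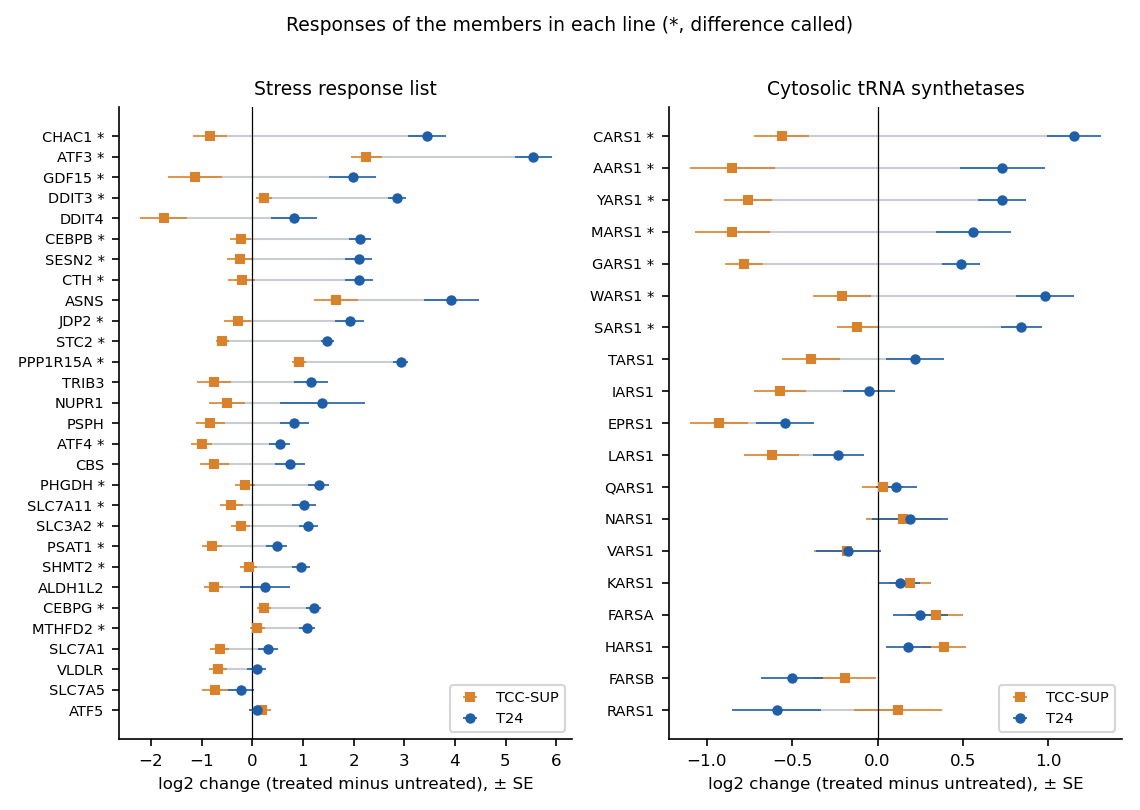
Log2 change after mitomycin C with its standard error in T24 (blue circles) and TCC-SUP (orange squares) for the 29 stress response genes and all but 1 of the 20 cytosolic aminoacyl-tRNA synthetases tested, ordered by the difference, with a star where the difference was called. In the stress response list 18 members carry a star, and in the synthetases the 7 at the top do, of which CARS1, AARS1, YARS1, MARS1 and GARS1 lie on opposite sides of 0 in the lines.

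Aminoacyl-tRNA synthetases, which charge tRNAs with amino acids, split within the family. Of 20 cytosolic enzymes tested, 7 had a called difference above 0, against 1.38% of all genes, and none below. In T24 6 rose and 2 fell, against 14.2% and 14.4% of all genes. In TCC-SUP 8 fell and none rose, against 10.8% and 8.03%. CARS1, the cysteine enzyme (chromosome 11, 3000922 to 3057613), rose from 96.9, 96.7 and 88.8 CPM to 258, 170 and 199 CPM in T24 and fell from 138, 119 and 143 CPM to 102, 90.8 and 78.4 CPM in TCC-SUP. No treated library overlapped an untreated one of its line, and the difference was 1.71 ± 0.23 (adjusted p = 0.00159). AARS1, YARS1 and GARS1, for alanine, tyrosine and glycine, also rose in T24 (0.73, 0.73 and 0.49) and fell in TCC-SUP (-0.85, -0.76 and -0.78). The differences of MARS1, WARS1 and SARS1 were 1.42, 1.18 and 0.96. EPRS1 fell in both lines (-0.54 and -0.93), and the enzymes for lysine, glutamine, asparagine, valine, phenylalanine and histidine had differences of -0.30 to 0.08, none called. The rise in T24 thus covered some of the family, and RARS1 lay on the other side with a difference of -0.72 that was not called.

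The unfolded protein response shares some targets with ATF4. Of its 23 genes tested, 4 rose and 6 fell in T24, against 14.2% and 14.4% of all genes. In TCC-SUP 8 fell and none rose, against 10.8% and 8.03%. The median change was -0.24 in T24 and -0.42 in TCC-SUP. The difference was above 0 in 17 and called above 0 in 3, against 1.38% of all genes. Its median was 0.29 (0.27, 0.34 and 0.33 in treated replicates 1, 3 and 4). ERN1, the sensor IRE1, rose from 8.27, 10.2 and 11.1 CPM to 60.5, 80.5 and 92.5 CPM in T24 and was at 8.63, 12.5 and 10.5 CPM and then 10.4, 14 and 15.4 CPM in TCC-SUP, where the groups overlapped. Its difference was 2.65 ± 0.31 (adjusted p = 0.000647). XBP1, the factor whose RNA ERN1 splices, and HERPUD1, of protein degradation at the endoplasmic reticulum, had differences of 1.53 and 1.54. The chaperones HSPA5, CALR and HSP90B1 fell in both lines, by -0.64, -0.73 and -0.90 in T24 and -1.43, -0.84 and -0.78 in TCC-SUP, with no called difference.

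The 24 genes that rose in T24 and fell in TCC-SUP held, beside SLC6A9, a glycine transporter (difference 2.97 ± 0.59, adjusted p = 0.0193), STC2, HERPUD1 and the synthetases CARS1, AARS1, YARS1 and GARS1, also genes outside these programmes. ABTB2 rose from 12.8, 13.4 and 10.8 CPM to 53.8, 27.6 and 36.9 CPM in T24 and fell from 18.7, 26.1 and 22.2 CPM to 15.5, 7.74 and 11.8 CPM in TCC-SUP. Its groups did not overlap in either line, and the difference was 2.61 ± 0.38 (adjusted p = 0.0034). CRISPLD2, FBXO32 (the muscle ubiquitin ligase atrogin-1), FRAS1 (a basement membrane protein) and KALRN (a guanine nucleotide exchange factor) had differences of 3.10, 3.07, 2.24 and 2.08. In T24 these 4 stayed low, with treated means of 2.76, 1.62, 2.7 and 4.06 CPM, and in TCC-SUP they began at means of 131, 147, 106 and 47.7 CPM.

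Targets of NRF2, the factor that answers oxidative stress, and ligands of the EGF receptor gave further opposite pairs. HMOX1, haem oxygenase (chromosome 22, 35380361 to 35394214), was at 43.8, 42.1 and 43.5 CPM and then 57.8, 50.1 and 88.9 CPM in T24, and fell from 159, 129 and 164 CPM to 69.3, 76.5 and 61.9 CPM in TCC-SUP. The rise in T24 passed the test (0.60, adjusted p = 0.0297) and was largest in replicate 4, and the difference was 1.73 ± 0.27 (adjusted p = 0.00487). ABCC3, an efflux pump, and TXNRD1, thioredoxin reductase, had differences of 1.63 and 1.14, the latter with a fall of 0.99 in TCC-SUP and a change of 0.15 in T24 (adjusted p = 0.59). Of 25 NRF2 targets tested, 4 had a called difference above 0, against 1.38% of all genes. In TCC-SUP 9 fell and in T24 2 did, against 10.8% and 14.4% of all genes. Of 11 genes for ligands and receptors of the EGF family, 2 had a called difference above 0, against 1.38% of all genes. Under the block 3 did, and 1 was called below 0 without treated replicate 1. EREG, epiregulin, rose from 56.8, 65 and 73.6 CPM to 95, 123 and 115 CPM in T24 and fell from 130, 214 and 164 CPM to 71.1, 82.3 and 114 CPM in TCC-SUP, with no overlap in either line and a difference of 1.69 ± 0.29 (adjusted p = 0.00942). AREG, amphiregulin, had a difference of 1.85, and HBEGF, another ligand, rose in both lines by 1.61 and 2.84, with a difference of -1.23 ± 0.47 that did not pass the test (adjusted p = 0.21).

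In the other direction, 5 genes fell in T24 and rose in TCC-SUP, with log2 changes under 1 in both lines for the 4 that are named here, while ENSG00000273669, which was under 1 CPM in every group mean, has no symbol. PEG10, an imprinted retrotransposon-derived gene, fell from 203, 219 and 257 CPM to 132, 143 and 121 CPM in T24 and rose from 97.8, 85.5 and 88.3 CPM to 124, 129 and 131 CPM in TCC-SUP. The treated groups of both lines thus came to lie side by side, with a difference of -1.28 ± 0.18 (adjusted p = 0.00267). GLO1, glyoxalase, ZFTA and PIMREG, a mitotic regulator, had differences of -1.09, -1.29 and -0.91.

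The 5637 line, given here side by side, did not follow either line throughout. In a fit of its own 6 libraries, 2899 of 15122 genes tested rose (19.2%) and 2535 fell (16.8%). Of 21 of the 24 genes that could be tested in it, 12 had a change above 0, 5 were called higher and 4 lower. These calls lie near the shares over all genes in 5637 and do not set the 21 genes apart. HMOX1 rose there by 1.64 and TNFSF9 by 2.43, whereas FRAS1 fell by 1.94 and ABCC3 by 0.57. Of the 5 genes of the other direction, all 5 had a change above 0 and 3 were called higher.

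Of the immediate early factors, some rose further in T24. Of 32 AP-1 and early response genes tested, 24 rose in T24 and 12 in TCC-SUP, against 14.2% and 8.03% of all genes. None fell in either line, and 7 had a called difference above 0, against 1.38% of all genes. With the block on the treated libraries 11 did. Below 0 there was none, and 1 without treated replicate 1 of both lines. JUNB, an AP-1 subunit, rose from 11, 9.14 and 10.6 CPM to 86.7, 58.5 and 73.5 CPM in T24 and was at 42.4, 34.9 and 44.3 CPM and then 45.5, 85.3 and 34.1 CPM in TCC-SUP, where the groups overlapped. Its difference was 2.39 ± 0.39 (adjusted p = 0.0062). KLF4, KLF10, CSRNP1 and IER3 had differences of 2.19, 1.16, 1.20 and 0.89, and EGR2 stayed under 1 CPM in T24. FOSB, MAFF and NR4A3 rose in both lines, by 2.21, 2.06 and 3.18 in T24 and 3.01, 1.74 and 3.03 in TCC-SUP, with no called difference. In the list of MAP kinase feedback genes, 4 of 18 differences were called above 0, against 1.38% of all genes, and none below. Without treated replicate 1 of both lines 2 were called below 0. DUSP10, a phosphatase of stress kinases, rose from 0.977 to 10.2 CPM in T24 and had means of 24.2 and 27.9 CPM in TCC-SUP, a difference of 3.17 ± 0.27 (adjusted p = 6.81e-05).

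Of 35 targets of p53 tested, 8 had a called difference above 0 (against 1.38% of all genes) and none below, but the median difference was 0.10. Below 0, 2 were called with the block on the treated libraries and 2 without treated replicate 1 of both lines. GADD45A, a growth arrest gene, rose from 76.3, 74.1 and 91.4 CPM to 671, 630 and 799 CPM in T24 and from 41, 36.8 and 47.9 CPM to 58.5, 73.4 and 73.6 CPM in TCC-SUP. All treated libraries lay above all untreated ones in both lines, and the difference was 2.41 ± 0.22 (adjusted p = 8.16e-05). CDKN1A, the cell cycle inhibitor p21, rose from 30.1 to 177 CPM in T24 and from 75.1 to 174 CPM in TCC-SUP. The treated lines met at nearly the same level from a lower untreated level in T24, with a difference of 1.34 ± 0.29 (adjusted p = 0.0336). GADD45B, BBC3 (the pro-apoptotic protein PUMA) and BTG2 had differences of 2.05, 1.99 and 1.93. MDM2, the ubiquitin ligase of p53, had changes of 0.34 and 0.28 that did not pass the test in either line, TNFRSF10B rose by 0.86 and 0.68, and BAX had changes of -0.10 and -0.20. Of the 8 called targets, GDF15 and SESN2 also stand in the stress response list.

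Of 39 genes stimulated by interferon, 22 rose in T24, against 14.2% of all genes. None passed the test in TCC-SUP, and the treated T24 libraries did not move alike. The difference was above 0 in 36, and 3 were called (GBP1, IRF1 and RSAD2), against 1.38% of all genes. With the block on the treated libraries 6 were called. The median response of the list in T24 was 1.52 in replicate 1, 1.11 in replicate 3 and 0.24 in replicate 4, and in TCC-SUP it was 0.17, 0.22 and 0.24. GBP1, a guanylate-binding protein, rose from 19.9, 20.6 and 27.5 CPM to 72.4, 167 and 131 CPM in T24 and was at 143, 92.7 and 203 CPM and then 170, 232 and 202 CPM in TCC-SUP, where the groups overlapped. Its difference was 1.98 ± 0.42 (adjusted p = 0.0297). MX1, an antiviral GTPase, reached 150, 91.8 and 42 CPM in treated T24 from 13.4, 19.6 and 10.3 CPM, and stood between 145 and 538 CPM in untreated TCC-SUP. Its difference of 2.61 ± 0.64 did not pass the test (adjusted p = 0.056). Of 20 genes of MHC class I presentation, 10 rose in T24 and 2 in TCC-SUP, against 14.2% and 8.03% of all genes. None had a called difference, while 1 had one without treated replicate 1 and 4 with the block. Among ligands of NK cells, ULBP1 had a called difference (2.59 ± 0.50, adjusted p = 0.0179), whereas MICA, MICB and ULBP2 rose in both lines (0.69, 1.02 and 1.25 in T24, and 0.65, 1.18 and 1.16 in TCC-SUP). Of the 17 ligands tested 1 had a called difference, 2 above and 1 below 0 did with the block, and 2 in each direction did without treated replicate 1.

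**Figure D4:**
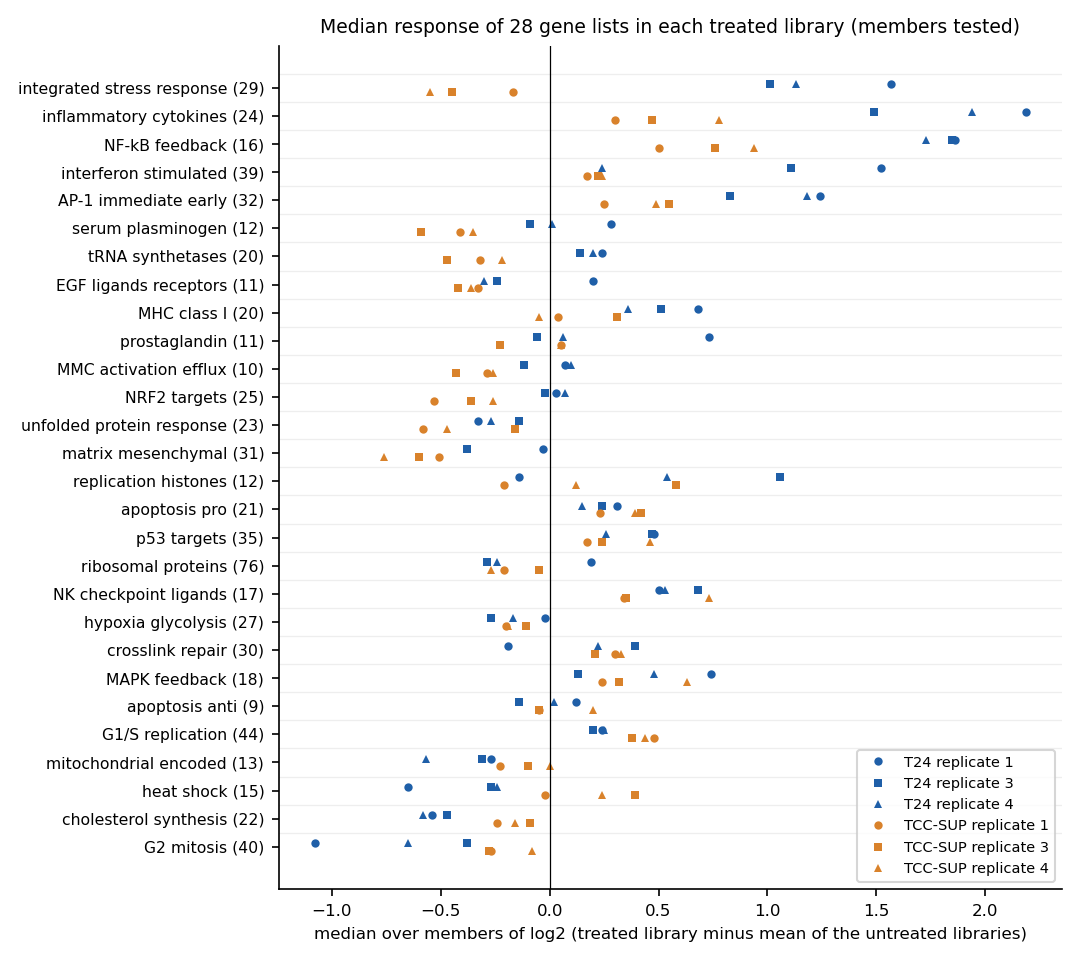
Median log2 response of each of 28 gene lists in each treated library, against the mean of the untreated libraries of its line, with T24 in blue, TCC-SUP in orange and the replicate number by symbol. The stress response list lies above 0 in all 3 T24 libraries and below 0 in all 3 TCC-SUP libraries, and the interferon list is high in T24 replicates 1 and 3 but at 0.24 in replicate 4.

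Below 0, the genes with the largest differences had mostly fallen in T24. DCHS1, a protocadherin of planar polarity, fell from 3.94, 4.26 and 2.48 CPM to 0.739, 0.219 and 0.291 CPM in T24 and was at 23.4, 32.4 and 25.7 CPM and then 23.9, 21.6 and 17.6 CPM in TCC-SUP. The groups overlapped in TCC-SUP, and the difference was -2.74 ± 0.46 (adjusted p = 0.00741). SLC39A10, a zinc importer, and SLC17A5, the lysosomal sialic acid exporter, fell in T24 by -2.10 and -2.28, and IGSF10 fell in both lines, by -2.95 in T24 and -1.12 in TCC-SUP. RBM24 and ESRP2, both splicing regulators, came from the other side: RBM24 rose from 10.4, 17.4 and 13.7 CPM to 23.7, 50.9 and 46.7 CPM in TCC-SUP and had a change of -0.21 in T24 (adjusted p = 0.65). ESRP2 rose in TCC-SUP from 0.55 to 1.69 CPM (group means).

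Mitotic genes fell more widely in T24. Of 40 genes of the G2 and mitosis list, 21 fell in T24 and 7 in TCC-SUP, against 14.4% and 10.8% of all genes. The medians of the list were -0.69 and -0.22. The difference was called below 0 in 2, PLK1 and CCNA2, against 0.423% of all genes. But it was called below 0 in 12 without treated replicate 1 of both lines (and 1 above 0) and in 12 with the block. The list's median difference was -0.70, -0.17 and -0.60 in treated replicates 1, 3 and 4. CCNA2, cyclin A2 (chromosome 4, 121816444 to 121823933), fell from 134, 133 and 138 CPM to 44.3, 66.6 and 60.2 CPM in T24 and was at 64.1, 65.5 and 59.8 CPM and then 55, 67 and 70 CPM in TCC-SUP. Treated T24 thus reached the level of TCC-SUP, and the difference was -1.26 ± 0.22 (adjusted p = 0.0106). PLK1, a mitotic kinase, fell in both lines, from 278 to 81.1 CPM in T24 and from 183 to 111 CPM in TCC-SUP, a difference of -1.06 ± 0.23 (adjusted p = 0.0302). CCNB1, cyclin B1, fell by -1.55 and -0.71, with a difference of -0.84 ± 0.23 that did not pass the test (adjusted p = 0.086).

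Many genes of the G1 to S transition and of replication rose in both lines. Of 44, 17 rose in T24 and 23 in TCC-SUP, against 14.2% and 8.03% of all genes. E2F2, CDC25A and GINS4 rose by 1.44, 1.02 and 1.07 in T24 and by 1.43, 1.09 and 1.08 in TCC-SUP. Their differences were 0.01 ± 0.26, -0.07 ± 0.27 and -0.01 ± 0.26. In T24 3 fell, CCND1, POLE2 (-0.79, with a difference of -1.01, adjusted p = 0.0508) and MCM6 (-0.66), and in TCC-SUP POLA1 did (-0.91). CCND1, cyclin D1, had the 1 called difference of the list, and with the block or without treated replicate 1 of both lines 3 were called below 0, with 1 above 0 in the latter. CCND1 fell from 956, 1170 and 1190 CPM to 544, 413 and 438 CPM in T24 and was at 319, 483 and 364 CPM and then 321, 424 and 400 CPM in TCC-SUP, a difference of -1.22 ± 0.25 (adjusted p = 0.0216). Of 30 genes of crosslink repair, the pathway that acts on the lesions of mitomycin C, none had a called difference. As 1.8% of all genes tested had one, a count of 0 says little about a list of this size. Below 0, 1 was called without treated replicate 1 of both lines and 1 with the block. RAD54L rose in both lines, by 1.03 and 0.77. Of 10 genes tested that activate or export the drug none had a called difference (1 above 0 with the block and 1 without treated replicate 1), and NQO1, a reductase that activates it, fell in TCC-SUP by 0.66 and had a change of -0.33 in T24 (adjusted p = 0.092).

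Among smaller lists, those of cholesterol synthesis and of heat shock had median differences of -0.42 and -0.39. Of 22 genes of cholesterol synthesis and uptake, 9 fell in T24 and 4 in TCC-SUP, against 14.4% and 10.8% of all genes. MSMO1, a sterol oxidase, and INSIG1, which holds back sterol synthesis, had called differences of -1.59 and -1.18, against 0.423% of all genes called below 0. With the block on the treated libraries 4 of the 22 were called below 0. MSMO1 fell from 54.6, 49.4 and 50.9 CPM to 11, 18.3 and 13.5 CPM in T24, clear of all its untreated libraries, and its TCC-SUP groups overlapped at 19.4, 11.4 and 12.1 CPM before and 9.05, 11.7 and 14.9 CPM after treatment. PTGES3, a co-chaperone of HSP90 also known as p23, fell in T24 from 397 to 141 CPM and had means of 140 and 129 CPM in TCC-SUP, a difference of -1.38 ± 0.24 (adjusted p = 0.00972). Among 15 heat shock genes, 6 fell in T24 and none in TCC-SUP, against 14.4% and 10.8% of all genes. HSPA8 fell from 3800 to 1480 CPM in T24. The heat shock list had no called difference. Without treated replicate 1 of both lines 3 of the 15 were called below 0, and with the block 3 were.

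Of 31 matrix and mesenchymal genes tested, 15 fell in TCC-SUP and 5 in T24, against 10.8% and 14.4% of all genes. The median changes were -0.56 in TCC-SUP and -0.30 in T24. The difference was called above 0 in 2, COL1A1 and SNAI1, against 1.38% of all genes, and below 0 in none. With the block on the treated libraries 4 were called above 0, and without treated replicate 1 of both lines 6 above and 1 below 0. COL1A1, of type I collagen, fell from 4440, 3480 and 4330 CPM to 2530, 2680 and 1640 CPM in TCC-SUP and was at 1.31 to 2.13 CPM untreated and 2.19 to 4.7 CPM treated in T24, so that its difference of 1.69 ± 0.39 (adjusted p = 0.0425) sets an abundant RNA against a rare one. COL1A2 fell in TCC-SUP from 3910 to 1840 CPM and was under 1 CPM in T24. COL4A2, of the basement membrane, had the opposite order of untreated levels, with means of 764 CPM in T24 and 11.6 CPM in TCC-SUP, and fell in both lines (-0.95 and -2.02, difference 1.06, adjusted p = 0.229). SNAI1, a repressor of epithelial genes, rose from 1.62, 0.996 and 1.01 CPM to 6.17, 11.5 and 7.36 CPM in T24, a difference of 2.08 ± 0.43 (adjusted p = 0.0249). No difference was called among 76 ribosomal protein genes (against 1.8% of all genes tested), and their median difference was 0.07. None was called under the block or without treated replicate 1 either.

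The remaining lists had few called differences, as did all genes tested (1.8%). Of 21 pro-apoptotic genes, BBC3 and BMF had one, the latter of 2.54 (adjusted p = 0.0465). Below 0, 1 of the 21 was called with the block and 2 without treated replicate 1 of both lines. Of 9 anti-apoptotic genes none had one, with 1 above 0 without treated replicate 1 of both lines and 1 with the block. In the prostaglandin list PTGS2 and PTGES3 were called of 11. Of 27 genes of hypoxia and glycolysis, VEGFA, the growth factor of blood vessels, rose in T24 by 1.43 and had a change of -0.38 in TCC-SUP, a difference of 1.82 (adjusted p = 0.00376). It was the 1 called gene, 2 were called above 0 with the block, and 2 in each direction without treated replicate 1. Of 13 mitochondrially encoded genes, MT-ND6, the subunit encoded on the other strand, fell in T24 by -1.45 and had a change of -0.03 in TCC-SUP, a difference of -1.42 (adjusted p = 0.00804) and the 1 called gene, with 2 called below 0 without treated replicate 1. Of 12 replication histones and 12 genes of the serum and plasminogen system none had a called difference, and of the latter 2 were called above 0 with the block and 1 below without treated replicate 1, which gave 1 histone gene above 0.

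Long genes fell in both lines. Protein-coding genes expressed in both lines were ordered by the span from start to end in GENCODE 29. In the 107 genes of 500 kb or more the median change was -1.46 in T24 and -1.84 in TCC-SUP, and 65.4% and 76.6% of them were called lower. The median response in treated replicates 1, 3 and 4 was -0.87, -2.32 and -1.87 in T24 and -1.37, -2.25 and -1.94 in TCC-SUP, so replicate 1 moved least in both lines and the lines overlapped. The median difference was 0.41 with an SD of 0.35 over the replicates, and it was called above 0 in 6 genes (5.61%) and below 0 in none. In the 643 genes of 200 to 500 kb the medians were -0.71 and -0.96, and in the 2072 genes under 10 kb they were 0.11 and 0.15. Under 10 kb, 7.96% of genes fell in T24 and 2.56% in TCC-SUP. Thus T24 had the larger share of falls among short genes and the smaller among the longest, which describes these bins and was not tested across genes.

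**Figure D5:**
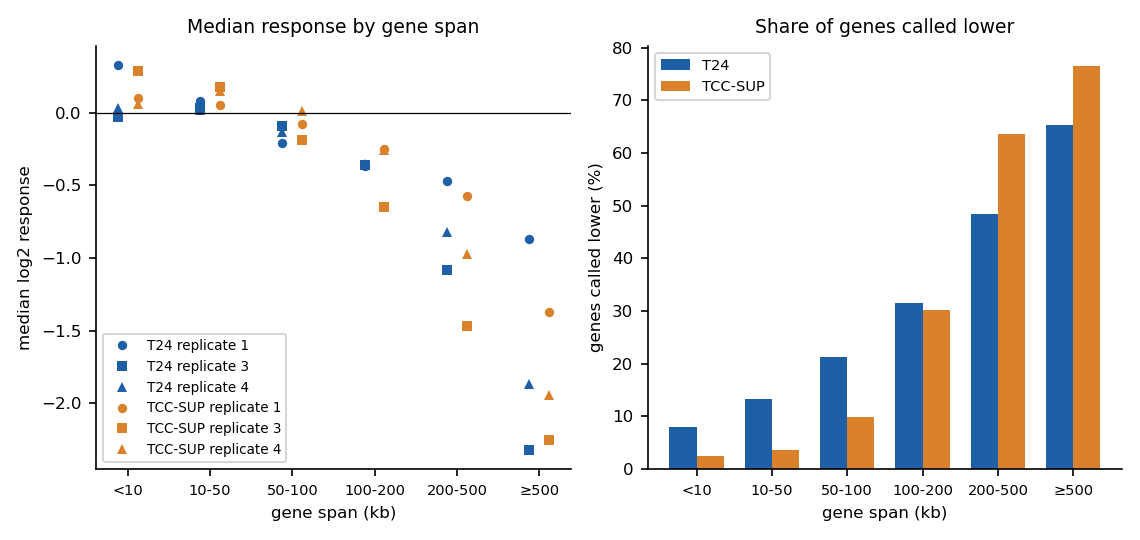
Median log2 response of protein-coding genes by gene span in kilobases in each treated library (left, T24 blue, TCC-SUP orange, replicate by symbol) and percent of genes called lower (right). From 50 kb up, the median is lower in each longer bin in every library, down to -0.87 in T24 replicate 1 and -2.32 in T24 replicate 3 at 500 kb or more.

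Some responses were close in both lines. Genes called in the same direction in both numbered 1684, and the narrow interval used here was met by a small part of them. In 78 genes called in the same direction in both lines, the 95% interval of the difference lay within -0.5 to 0.5. Those with the narrowest interval were ARPC2, RPS6, RHOA, ATP5F1A and VCP, which fell in both lines, and CIAPIN1, which rose. VCP, an ATPase of protein degradation, fell by -0.53 in T24 and -0.56 in TCC-SUP, with a difference whose interval ran from -0.32 to 0.37. RPS6, a ribosomal protein, fell by -0.48 and -0.45, with an interval from -0.36 to 0.29.

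For genes that mainly 1 line expressed, the difference sets a change at many reads against one at few. Genes with a group mean of at least 10 CPM in one line and under 1 CPM in every library of the other numbered 137 in T24 and 322 in TCC-SUP. Of the 137, 12 rose and 38 fell in T24, against 14.2% and 14.4% of all genes tested. Of the 322, 13 rose and 107 fell in TCC-SUP, against 8.03% and 10.8% of all genes tested. The difference was called in 1 of the 137 and in 5 of the 322, near or below the 1.8% of all genes tested. RASD2 is 1 of these 5 and also 1 of the 24 that rose in T24 and fell in TCC-SUP, with means of 0.028 and then 0.176 CPM in T24 and 19.5 and then 7.7 CPM in TCC-SUP. DLL4, a Notch ligand, rose in T24 from 0.759 to 12.8 CPM, and CDH4, a cadherin, fell there from 54.7 to 3.98 CPM. In TCC-SUP, CACNA1C, a calcium channel, fell from 21.2 to 3.26 CPM and was under 1 CPM in every T24 library.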

How the data were processed

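Poly(A) RNA of 12 libraries of T24 and TCC-SUP cells was used, with 3 per group. The deposited table holds whole-number read counts per gene with no normalization by the authors. Reads had been aligned with STAR 2.5.3a and counted with featureCounts 1.6.2 on GRCh38, per the submitters' processing notes. The annotation used for counting, its strand setting and the rule for multiply mapped reads were not given in the sources used here. Values of overlapping genes, antisense partners and near-identical copies (HLA and CXCL genes, IL6 and its antisense transcript) are uncertain. Of 58381 gene identifiers, 58216 were matched to GENCODE 29, from which symbols and coordinates came.

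Genes were filtered with filterByExpr, which kept 17041 genes and 99.915% of the reads. They were fitted with edgeR 4.0.16 (TMM scaling, robust quasi-likelihood F-test, 8 residual degrees of freedom) in R 4.3.3, with limma 3.58.1, for each line's response and for the line-by-treatment difference, with Benjamini-Hochberg adjustment over all genes at 0.05. Every adjusted p in the text is from this edgeR test, and errors are SE of log2 values. Changes of group means are on the CPM scale. The p-values measure the spread between these libraries. Depth was 19550429 to 28821665 reads, and replicates of a group differed by more than sampling noise (chi-square per gene of at least 9.71). In simulated data with 16525 genes, 30% of differences of 2-fold and 96% of 4-fold were recovered, with 4 false calls, for the line-by-treatment comparison. They were planted in treated T24 only, in genes of at least 10 CPM in both untreated lines, with no other response to treatment. The simulated replicates were independent, so the deviations shared by replicate number were not covered.

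The same replicate number in treated T24 and TCC-SUP went with correlated deviations (0.47, 0.25 and 0.14 for replicates 1, 3 and 4), whereas the untreated ones did not (0.10, -0.03 and -0.04). Untreated and treated libraries of the same number correlated at 0.26, -0.07 and 0.27 within T24 and at 0.10, -0.03 and -0.10 within TCC-SUP. The evidence for pairs among the treated numbers is thus weak. They were taken as pairs in an alternative fit, and a block on them is given where it changes a count by over 1.5 times. That block and the fit without treated replicate 1 were chosen after seeing the data. Alternatives were other scaling factors, DESeq2 1.42.0, no filter, fits on 18 and 24 libraries, a test against a difference of 1 (log2), blocks and leaving out libraries. The gene lists and the members were chosen with earlier results of these data known. Genes were named by size: the 10 largest differences each way among called genes of at least 1 CPM in each line and 10 CPM in the highest group, the 10 largest opposite responses each way, the leading called genes of each list, up to 6 alike and up to 4 expressed in 1 line. Members of a list that were not called are named with their values. Some genes that these rules would name are not reported here. Promoter sequences are from RefSeq (GRCh38.p14). The 6 libraries of CLS-439 were used in the 24-library fit only.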

Additional observations from a re-analysis of the deposited data

Results flagged for a closer look

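The lines responded differently, by the interaction test itself, in 235 genes above 0 and 72 below 0, and the direction was opposite in 24 genes that rose in T24 and fell in TCC-SUP and in 5 that fell in T24 and rose in TCC-SUP. Among genes with opposite responses, the log2 difference was 3.10 for CRISPLD2, 3.07 for FBXO32, 2.97 for SLC6A9, 2.61 for ABTB2, 2.24 for FRAS1, 2.08 for KALRN, 2.06 for STC2, 1.73 for HMOX1, 1.71 for CARS1 and 1.69 for EREG. In the other direction it was -1.29 for ZFTA, -1.28 for PEG10, -1.09 for GLO1 and -0.91 for PIMREG. These 14 genes were chosen from those in which both lines' responses and the difference between them passed edgeR's test.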

How the results depend on the processing

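Counts are given as genes above 0, genes below 0, and opposite genes (T24 higher and TCC-SUP lower, then the reverse), against 235, 72, 24 and 5. DESeq2 gave 625, 324, 41 and 12, no filter 532, 319, 49 and 11, and the fit on all 24 libraries 503, 287, 39 and 17. The 18-library fit gave 341, 143, 30 and 11, and upper-quartile factors left 3 of the last kind. The replicate block shared by both lines within a treatment gave 433, 237, 50 and 17. The block on the treated libraries, with numbers taken as pairs, gave 698, 529, 61 and 35. The block by line gave 209, 54, 36 and 8. Without treated replicate 1 of both lines there were 673, 691, 70 and 52. Tested against a difference of 1, 33 were above 0 and 0 below, with 420 and 128 at an unadjusted p under 0.05. Leaving out replicates or single libraries gave 3 to 595, 0 to 265, 0 to 54 and 0 to 21, lowest without replicate 4. The count above 0 moved by over 1.5 times without untreated T24 replicate 1 (142), 3 (125) or 4 (116), treated T24 replicate 1 (595), untreated TCC-SUP replicate 1 (127) or 4 (122) or treated TCC-SUP replicate 4 (126), and the cause was not tested. The count below 0 fell to 6 to 35 without any 1 untreated library or treated replicate 4 of either line. Of 2572 values of 103 named genes with a called difference, all 2572 kept their direction and 496 lost the call; 3 of 103 genes kept it without replicate 4, 46 without replicate 3, and 51 under every alternative other than these. Of 850 medians of lists and span bins, 62 moved. In simulated data 30% of 2-fold differences were called, in genes of at least 10 CPM in both untreated lines and with independent replicates. In that setting smaller differences were mostly not detectable with 3 libraries per group.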
